A study of Saccharomyces cerevisiae with 2 samples.

Results

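INO1, HXK1, SUC2, TSA2 and HSP104 are 5 nuclear genes of Saccharomyces cerevisiae that are known to move to nuclear pores when they are active. Their DNA contacts were read from genome conformation capture (GCC) libraries of cells grown in glycerol lactate or in galactose. GCC cross-links chromatin, cuts it with the restriction enzyme MspI, ligates the cut ends and counts how often each pair of fragments is sequenced together. The fragments of the genes were taken as every nuclear fragment whose annotation names the gene, which gave 31 of 13593 nuclear fragments outside the ribosomal DNA. Of the 31, 14 overlapped their gene and 17 lay upstream of HXK1, where no gene is annotated and HXK1 is named as a neighbour.

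Nuclear pores are channels in the nuclear envelope that also hold some active genes. INO1 encodes the synthase that makes inositol phosphate for phospholipids and is a standard example of a gene recruited to pores when inositol is absent. SUC2 encodes invertase, which splits sucrose, and HXK1 encodes a hexokinase. Both are repressed by glucose. According to the methods of the study, the glycerol lactate medium also held a small amount of glucose, and for the galactose medium none is given. TSA2 encodes a stress-induced peroxiredoxin, and HSP104 a chaperone that pulls apart aggregated proteins. GCC counts contacts between DNA fragments and does not measure contact with a pore.

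All cells were strain BY4741, grown at 30 °C in synthetic complete medium to an OD600 of 0.6. The media differed in the carbon source. Glycerol lactate is used by respiration, and galactose by respiration together with fermentation. The 2 biological replicates of each medium had been combined before counting, so each medium is 1 library without replicate values. The differences below compare 2 libraries, no test between media was possible, and the 95% intervals cover counting error only. The uniquely mapped tables held 3221104 counts for glycerol lactate and 2338837 for galactose. Pairs of neighbouring fragments, which can be uncut sites as well as ligations, made up 80.3% and 58.0% of them. The glycerol lactate library held 181286 counts between nuclear chromosomes and 83910 between nuclear and mitochondrial DNA, and the galactose library 363827 and 26312.

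The genes lie on 5 chromosomes and at different distances from a chromosome end. Coordinates are those of the tables' S288C reference sequences. The coding sequence of INO1 (YJL153C, minus strand) spans chrX:134329-135930, and that of HXK1 (YFR053C, minus strand) chrVI:253579-255036. SUC2 (YIL162W, plus strand) spans chrIX:37385-38983. TSA2 (YDR453C, minus strand) spans chrIV:1365064-1365654, and HSP104 (YLL026W, plus strand) chrXII:88622-91348. HXK1 is the nearest to an end, 15.1 kb away, followed by SUC2 at 37.4 kb and HSP104 at 88.6 kb. INO1 and TSA2 lie 134 kb and 166 kb from their ends.

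MspI cut these genes unevenly. INO1 was covered by 6 fragments and HXK1 by 3, whereas SUC2 and HSP104 were each covered by 2 fragments and TSA2 by 1 fragment of 3190 bp. That TSA2 fragment also overlaps PPN1 and GUK1, so its counts cannot be given to TSA2 alone. The first HSP104 fragment also overlaps ISA1, and the second carries a long terminal repeat. Fragment lengths ranged from 15 to 3569 bp with a median of 418 bp, against 569 bp over all nuclear fragments. Longer fragments collect more counts, so each fragment was set beside all other nuclear fragments within 10% of its length, of which there were 48 to 943. Sums over the fragments of a gene were compared with the sum of the length-matched means.

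At the shortest range, HSP104 differed from its length-matched fragments in both media. It had 405 neighbour counts in glycerol lactate and 209 in galactose, where length-matched fragments had 645 and 332. All of these came from the outer edges of its fragments. The 6 bp between them form a fragment with no line in any of the 4 tables, and the pair across it, chrXII:87973-90468 with chrXII:90475-94043, held 116 and 75 counts. A like gap lies upstream of INO1. The fragment with its start codon, chrX:135742-136249, paired with a fragment of SNA3 across 8 unlisted bp, with 172 counts in glycerol lactate and 41 in galactose. The other genes showed no such loss of neighbour counts in glycerol lactate. HXK1 had 7145 counts there against 6673, and TSA2 383 against 332. SUC2 was lower than its length-matched fragments in galactose, with 258 against 373, and closer in glycerol lactate, with 642 against 719.

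Within the chromosome, pairs were divided at a gap of 10 kb. Up to 10 kb, HSP104 was the farthest above its length-matched fragments, with 265 counts in glycerol lactate beside 44.9 and 231 in galactose beside 69.5. The pair across its 6-bp gap enters these sums for both fragments. It gave 116 of the 145 counts of 1 fragment and of the 120 of the other in glycerol lactate. In galactose it gave 75 of 114 and of 117. Without this pair the HSP104 sum would be under 44.9 in glycerol lactate, and above 69.5 by far less in galactose. HXK1 had 1248 counts in glycerol lactate and 930 in galactose, beside the 601 and 619 of length-matched fragments. A pair between 2 fragments of the gene enters the sum of both. For glycerol lactate such pairs of HXK1 held 598 counts, and for galactose 344. With each of them entered only once, the HXK1 sum would be somewhat above 601 in glycerol lactate and under 619 in galactose. The length-matched sums were left as they were. The highest pairs were between the upstream fragments of HXK1. The 3187-bp fragment paired with the 1289-bp fragment across 16 bp 118 and 58 times, and the 102-bp fragment paired with the 60-bp fragment across 45 bp 89 and 37 times. Across the 15-bp and 30-bp fragments, the 363-bp fragment paired with the 348-bp fragment 84 times in glycerol lactate and 15 in galactose. SUC2 was the lowest of the 5 genes relative to its length-matched fragments, with 16 counts in glycerol lactate and 49 in galactose where length-matched fragments had 57.3 and 74.1. These are sums of means, which a few fragments with many counts raise. Over all within-chromosome pairs in glycerol lactate, the 2 SUC2 fragments had 11 and 9 counts. Their length-matched medians were 15 and 16, and the 95th percentiles 140 and 167. The highest within-chromosome pairs of SUC2 had 4 counts, all in galactose. They were with fragments of NIT1, POT1 and BNR1 and with a fragment across 11164 bp that names no gene. TSA2 paired most often with its RPS18A and YHP1 neighbourhood, 7 times in galactose and never in glycerol lactate.

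Beyond 10 kb, counts were higher in galactose than in glycerol lactate at every gene, as they were in the whole library, which held 37529 such counts in glycerol lactate and 249823 in galactose. INO1 went from 31 to 197 counts beside 31.4 and 214 in length-matched fragments. TSA2 went from 14 to 60 beside 8.16 and 45.2, and HSP104 from 21 to 122 beside 15.8 and 89.5. HXK1 and SUC2 stayed under their length-matched fragments in both media. HXK1 went from 45 to 432 beside 97.0 and 651, and SUC2 from 4 to 67 beside 12.4 and 85.1. HXK1 lies on chromosome VI, which is 270148 bp long. In galactose the far pairs with the most counts included TSA2 with a fragment of HEH2, PFA5, TFB3 and TOM1 across 12772 bp, at 5 counts. None of the 25 far pairs with at least 3 counts belonged to glycerol lactate.

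**Figure D1:**
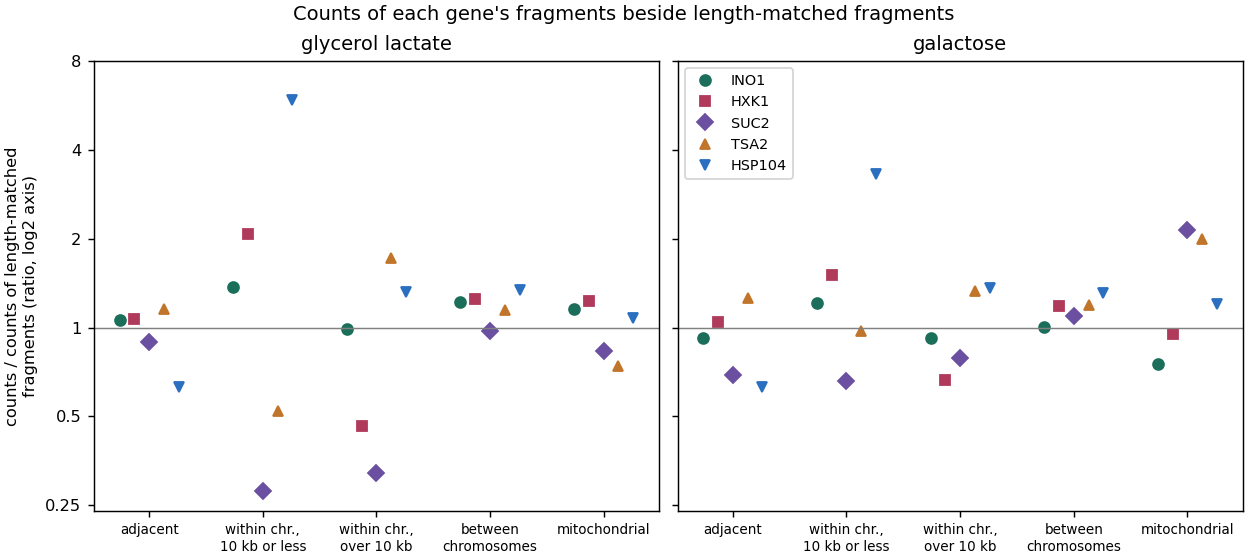
Counts of the fragments of each gene divided by the counts of length-matched nuclear fragments (vertical log2 axis), for each class of contact, in glycerol lactate (left) and galactose (right). HSP104 is highest for pairs up to 10 kb (265 counts against 44.9 in glycerol lactate). The pair across its 6-bp gap enters there for both fragments, and without it the sum would be under 44.9. SUC2 is lowest (16 against 57.3, a sum of means), and the between-chromosome counts of all 5 genes lie near the line of equality in both media.

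Contacts with other chromosomes were as frequent at these genes as at length-matched fragments, or somewhat more so. INO1 had 150 between-chromosome counts in glycerol lactate and 301 in galactose, beside 123 and 299. HXK1, the gene with the most fragments, had 516 and 1109 beside 411 and 934, the widest gap in counts of the 5 genes. SUC2, with 64 and 135 beside 65.7 and 124, lay within counting error of its length-matched fragments in both media. TSA2, with its single fragment, had 68 and 92 beside 59.3 and 77.0, and HSP104 had 150 and 198 beside 112 and 151. As a multiple of its length-matched counts, HSP104 was the farthest above of the 5 genes in both media. Fragment by fragment, 24 of 31 were above the median of their length-matched fragments in each medium. As 20 of the 31 are contiguous fragments at HXK1, this tally does not describe 5 separate genes. In glycerol lactate 6 of 31 were above the 95th percentile and in galactose 3, and none was below the 5th percentile in either. Of the 6, 5 lie upstream of HXK1 and the other is at HSP104. The 3 in galactose lie upstream of HXK1 and at HSP104, so INO1, SUC2 and TSA2 had none. The HSP104 fragment with the long terminal repeat was high in both media, with 102 counts beside a median of 66 and 113 beside 83. It runs to position 94043, beyond the end of the coding sequence at 91348, so its counts cannot be given to HSP104 alone. The fragment with the HSP104 start codon had 48 counts beside a median of 50 in glycerol lactate and 85 beside 74 in galactose. Where reads of repeated sequence were kept, in the tables of all mapped sequences, HSP104 had 733 counts in glycerol lactate and 772 in galactose. Length-matched fragments had 2993 and 3003 there by their means and 169.5 and 220 by their medians.

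HXK1 holds 20 of the 31 fragments, and its upstream DNA between the gene and the end of chromosome VI did not behave evenly. It was divided at its longest fragment after the values had been seen, so the following is a description. The 10 fragments on the gene side, chrVI:255336-257250, lie 12.9 to 14.5 kb from the end. All 10 were above their length-matched median in glycerol lactate, and 5 were above the 95th percentile. The 348-bp fragment had 44 between-chromosome counts beside a median of 20, and the 363-bp fragment had 41 beside 20. Together the 10 fragments had 257 counts in glycerol lactate beside 147, and 438 in galactose beside 392. The 6 fragments on the other side, chrVI:260438-263553, lie 6.60 to 9.70 kb from the end. They had 131 counts in glycerol lactate beside 129, but 409 in galactose beside 294, and all 6 were above their median in galactose. The 641-bp fragment had 21 and 101 counts beside medians of 24 and 57. The 3187-bp fragment between them had 56 and 69 counts beside 59.3 and 77.0. The 3 fragments that overlap HXK1 had 72 counts in glycerol lactate beside 75.8, and 193 in galactose beside 171. In glycerol lactate the counts above length-matched fragments lay on the gene side. In galactose the gene, the gene side and the side of the chromosome end were all above, the last by the most. Whether the many short fragments of the gene side take part in this was not tested.

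**Figure D2:**
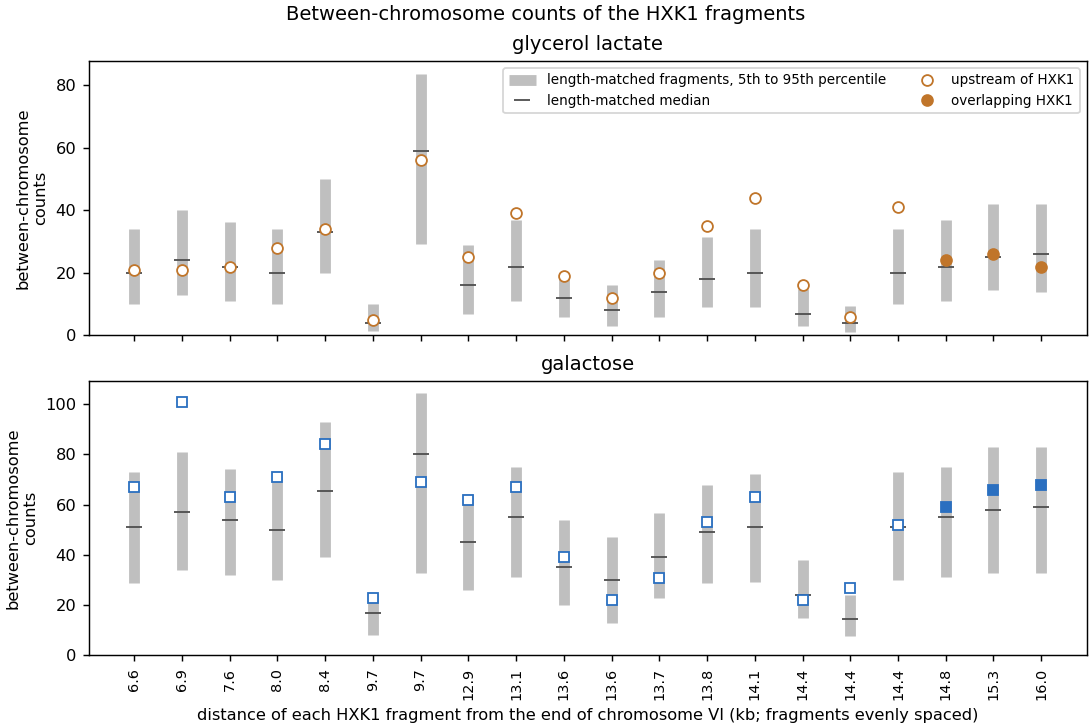
Between-chromosome counts (vertical axis) of the 20 HXK1 fragments, ordered by their distance from the end of chromosome VI in kb (horizontal axis), with the median and the 5th to 95th percentile of length-matched fragments. In glycerol lactate (top) 5 of the 10 fragments at 12.9 to 14.5 kb lie above the grey range, and in galactose (bottom) the fragment at 6.95 kb, with 101 counts, lies above it.

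The media were compared by the ratio of each gene's between-chromosome counts per library, galactose over glycerol lactate, each library scaled to its own total of such counts. INO1 had 82.7 and 82.7 per 100000 in the 2 libraries, a ratio of 1.00 (0.82 to 1.22). HXK1 had a ratio of 1.07 (0.96 to 1.19) and SUC2 a ratio of 1.05 (0.78 to 1.44). The intervals of these 3 genes hold 1. The ratio was below 1 at TSA2, 0.67 (0.49 to 0.94), and at HSP104, 0.66 (0.53 to 0.82). Fragments as long as theirs had like values. Length-matched fragments had a ratio of 0.65 at TSA2 and 0.67 at HSP104, and over all other nuclear fragments the ratio went from 1.47 for fragments up to 100 bp to 0.59 for those over 3000 bp. Relative to length-matched fragments the ratio was 1.04 at TSA2, 0.98 at HSP104, 0.95 at HXK1, 1.12 at SUC2 and 0.82 at INO1. Why the ratio is lower at longer fragments was not tested.

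Fragment by fragment, all 31 had at least 20 between-chromosome counts over both libraries, with ratios from 0.55 to 2.40 and a median of 1.04, beside a median of 1.10 over all nuclear fragments. A ratio of at least 2 was found at 3 of the 31, where 8.41% of all nuclear fragments with as many counts had one. A ratio past 2-fold lower was found at none of the 31, beside 2.43% of all. In the tables of all mapped sequences 10 of the 31 had such a ratio, beside 38.8% of all nuclear fragments there, and none was past 2-fold lower beside 0.0222%. With at least 50 counts required in the uniquely mapped tables, 1 of 26 fragments had such a ratio beside 5.83% of all, and none was past 2-fold lower beside 2.44%. The 3 fragments lie upstream of HXK1 and are 15, 16 and 641 bp long. The 15-bp fragment went from 6 to 27 counts, a ratio of 2.24 (0.91 to 6.64), and the 16-bp fragment from 5 to 23, 2.29 (0.85 to 7.72). The intervals of both hold 1. The 641-bp fragment went from 21 to 101, a ratio of 2.40 (1.49 to 4.04), above the 95th percentile of its length-matched fragments, which was 1.96. It was the only one of the 31 above that percentile, and 4 were below the 5th. These 4 all lie on the gene side upstream of HXK1, where the 363-bp fragment had a ratio of 0.63 and the 348-bp fragment 0.71. The upstream blocks were divided after the values had been seen, so their ratios and intervals are a description only. On the gene side the 10 fragments together had a ratio of 0.85 (0.73 to 0.99) beside 1.32 for length-matched fragments. The 3 fragments that overlap HXK1 had 1.34 (1.01 to 1.78) beside 1.13. On the side of the chromosome end the 6 fragments had 1.56 (1.27 to 1.91) beside 1.14.

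**Figure D3:**
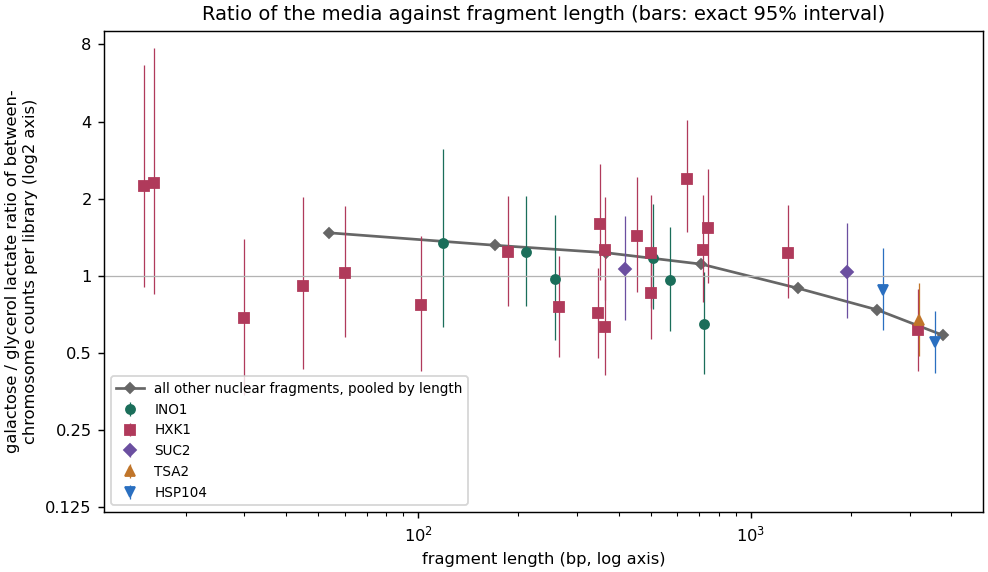
Ratio of between-chromosome counts per library, galactose over glycerol lactate (vertical log2 axis), of the 31 fragments against their length in bp (log axis), with exact 95% intervals, and the pooled ratio of all other nuclear fragments in 7 length classes (grey). The grey line runs from 1.47 down to 0.59, and the TSA2 and HSP104 fragments, at 0.55 to 0.88, lie at its long end.

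Chromosome ends gather at the nuclear envelope in yeast, which makes contacts with ends of interest for genes that move there. A partner counted as near an end when it lay within 30 kb of it, as 7.86% of nuclear fragments do. HXK1 had 26 of its 516 between-chromosome counts at such partners in glycerol lactate, 5.04% (3.46 to 7.28), and 93 of 1109 in galactose, 8.39% (6.89 to 10.2). Length-matched fragments had 6.43% and 5.94%, so HXK1 was above them in galactose only. HXK1 itself is close to an end, however. Fragments of like length that lie within 10 kb of the same end distance had 20.9% and 15.0%, or 12.6% and 11.8% without fragments annotated as telomeres, and both values of HXK1 are under these. Of 219 such fragments with at least 20 between-chromosome counts in galactose, 67.1% had a higher share than HXK1. In galactose the share was 11.7% (8.97 to 15.2) for the 6 fragments nearest the end and 6.85% (4.84 to 9.61) for the 10 on the gene side. The 93 counts in galactose were spread over 25 chromosome ends, with 8 counts at the left end of VIII, and the 26 in glycerol lactate over 15 ends, with 4 at the left end of XI.

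At the other genes the interval of this share held the value of length-matched fragments in both media. INO1 had 7.33% (4.14 to 12.7) in glycerol lactate and 5.32% (3.30 to 8.46) in galactose, beside 5.92% and 5.84%. SUC2 had 5 counts at chromosome ends in each medium, 7.81% and 3.70%. TSA2 had 8.82% and 8.70% beside 8.03% and 7.33%. HSP104 had 7.33% (4.14 to 12.7) and 8.59% (5.43 to 13.3) beside 7.12% and 6.62%. Fragments at a like distance from their own end had 5.22% in galactose, just under the lower bound of HSP104. The right end of IX was the end with the most HSP104 counts in both media, 3 in glycerol lactate and 4 in galactose.

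**Figure D4:**
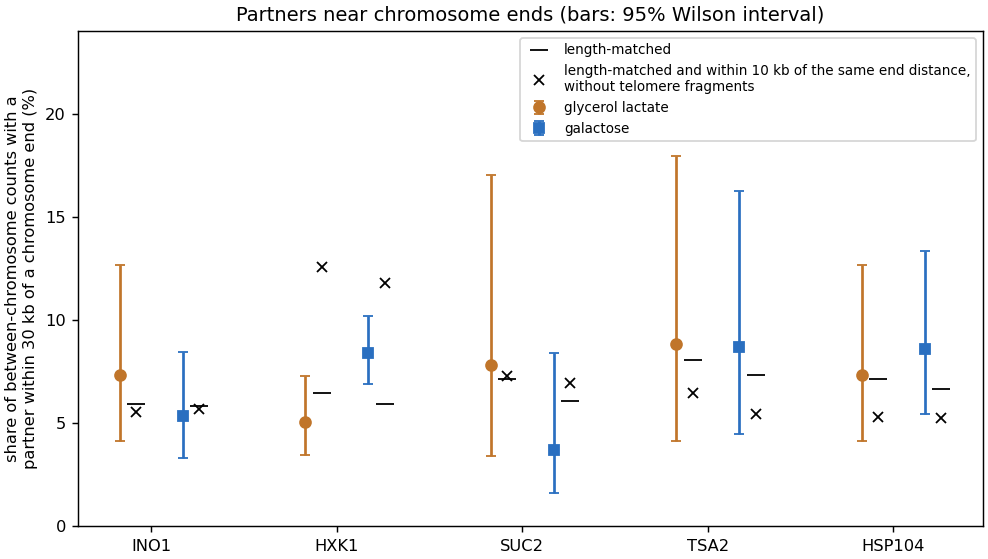
Share of each gene's between-chromosome counts whose partner lies within 30 kb of a chromosome end (vertical axis, %), in glycerol lactate (circles) and galactose (squares), with 95% Wilson intervals, beside length-matched fragments (dashes) and those also at a like distance from their end (crosses). HXK1 in galactose, at 8.39%, lies above its dash at 5.94% and below its cross at 11.8%.

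The contacts with other chromosomes were almost all single events. Of the 463 between-chromosome pairs of HXK1 in glycerol lactate, 420 had 1 count, and so had 990 of 1048 in galactose. Pairs of at least 3 counts were 10 of the 463, or 3 of the 1048, and over all nuclear fragments such pairs made up 1.04% and 0.337%. INO1 had 1 pair of 3 counts among 287 in galactose, with SOG2 on XV, and none in glycerol lactate. The highest between-chromosome count of the 5 genes was 4, for the HSP104 fragment with the long terminal repeat and chrXV:156766-157910 in glycerol lactate, a pair with 0 counts in galactose. Some pairs were chosen after their values were seen. A SEC61 fragment of 163 bp on XII, the gene of the main channel of the endoplasmic reticulum, had 3 counts with each of 2 neighbouring HXK1 fragments in glycerol lactate and none in galactose. TSA2 had 2 counts in glycerol lactate with the fragment of its paralog TSA1 and of USA1 on XIII, and none in galactose. Few pairs were seen in both media. HXK1 shared 3 between-chromosome pairs, HSP104 3 and INO1 2, and SUC2 and TSA2 shared none. The same overlap was not counted over all nuclear fragments, so it cannot be called particular to these genes. Over all nuclear fragments, too, only 8.94% of between-chromosome pairs in glycerol lactate and 5.95% in galactose had at least 2 counts.

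Partners were spread over the chromosomes. HXK1 had counts with all 15 other chromosomes in each medium, and INO1 with 14 in glycerol lactate and 15 in galactose. For each gene and medium the share of each partner chromosome was set beside the same share of all other fragments on the gene's own chromosome. In 18 of 150 shares, or 12%, that value lay outside the 95% interval of the gene. For 9 other genes reported at pores, read in the same way, it did in 18 of 270, or 6.67%. Intervals narrow with more counts, and HXK1 had more between-chromosome counts than any of the 9 genes. The fragments of the chromosome were also not matched for length or end distance. The percentages are therefore not a like comparison. The shares below are those of single chromosomes among the 150 and were chosen after their values were seen. HXK1 gave 11.2% (8.80 to 14.3) of its between-chromosome counts to XII in glycerol lactate beside 8.30%, and 5.59% (4.39 to 7.10) in galactose beside 7.51%. With XIV the order was the other way, 3.88% (2.52 to 5.91) beside 7.67% in glycerol lactate and 8.66% (7.14 to 10.5) beside 6.57% in galactose. INO1 gave 14.0% (9.34 to 20.5) to XII in glycerol lactate beside 9.08%, and 39 of 301 counts (9.62% to 17.2%) to XV in galactose beside 9.52%. HSP104 gave 6.57% (3.88 to 10.9) to VI in galactose beside 2.58%, and SUC2 gave 18.8% (11.1 to 30.0) to XV in glycerol lactate beside 9.65%.

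Contacts among the 5 genes themselves were close to the limit of detection. In glycerol lactate 1 count joined different genes, between the TSA2 fragment and the 363-bp fragment upstream of HXK1. In galactose 1 count joined the 1289-bp fragment upstream of HXK1 to the HSP104 fragment with the long terminal repeat. A count of 0, which all other pairs of the genes had, allows up to 3 counts.

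Contacts with mitochondrial DNA were fewer in galactose than in glycerol lactate at all 5 genes, as in the whole library. INO1 went from 38 to 7 counts, HXK1 from 129 to 32 and HSP104 from 22 to 8. SUC2 went from 12 to 9 and TSA2 from 8 to 7. Summed over the 31 fragments there were 209 counts in glycerol lactate and 63 in galactose, where length-matched fragments had 183 and 57.3. In glycerol lactate INO1, HXK1 and HSP104 were above their length-matched values of 32.9, 105 and 20.5, and SUC2 and TSA2 below theirs of 14.4 and 10.8. In galactose SUC2, TSA2 and HSP104 were above their values of 4.20, 3.51 and 6.65, and INO1 and HXK1 below theirs of 9.32 and 33.7. Per library total of such counts the ratio of the 31 fragments was 0.96 (0.71 to 1.28), beside 1.00 for length-matched fragments. By gene it was 0.59 (0.22 to 1.33) at INO1, 0.79 (0.52 to 1.17) at HXK1, 1.16 (0.45 to 2.70) at HSP104, 2.39 (0.89 to 6.18) at SUC2 and 2.79 (0.86 to 8.81) at TSA2. All 5 intervals hold 1. The scale decides whether a ratio is above 1. Over all non-adjacent nuclear counts of each library the ratio was 0.15 for the 31 fragments, 0.37 at SUC2 and 0.43 at TSA2. This change of scale multiplies the ratio of every nuclear fragment by the same factor. SUC2 and TSA2 were thus above the 31 fragments together on either scale. None of the 31 fragments reached 20 mitochondrial counts over both libraries. Of the 329 nuclear fragments that did, 6.69% were past 2-fold higher in galactose and 14.6% past 2-fold lower. The mitochondrial pairs of HXK1 with 3 counts, all in glycerol lactate, were 3 of its 113 there, and it had 32 pairs in galactose. Over all nuclear fragments such pairs of at least 3 counts made up 1.64% and 0.305%. The 3 pairs were with a fragment that names COX1, its intron genes and ATP8, with the interval of COX2 and COX3 and with that of COX2 and SCEI.

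As shares of all non-adjacent counts, mitochondrial contacts of the 31 fragments were 6.83% (5.99 to 7.78) in glycerol lactate, beside 9.05%, and 1.48% (1.16 to 1.89) in galactose, beside 1.54%. With each pair between 2 fragments of a gene counted once, the shares were 8.95% (7.86 to 10.2) and 1.65% (1.30 to 2.11). The length-matched values were not recounted in this way. The between-chromosome share was 33.3% in glycerol lactate and 43.8% in galactose, beside 41.9% and 43.3%, and 44.6% and 49.0% with each such pair once.

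A further 9 genes reported at nuclear pores, GAL1, GAL10, GAL7, GAL2, SSA4, PRM1, FIG2, HIS4 and CTT1, were read in the same way over 36 fragments. GAL1, GAL10 and GAL7 are neighbours on chromosome II and encode the enzymes that bring galactose into glycolysis. GAL2 encodes the galactose transporter, and galactose is the medium in which the GAL genes are active. Whether activity bears on their contacts was not tested. All 9 genes together had 941 between-chromosome counts in glycerol lactate and 2080 in galactose, beside 945 and 1978 in length-matched fragments. Their joint ratio was 1.10 (1.02 to 1.19) beside 1.04. The ratio of GAL1 was 1.43 (1.16 to 1.77) beside 1.24 for its length-matched fragments, and of GAL2 1.25 (1.02 to 1.55) beside 1.17. That of GAL10 was 1.15 (0.93 to 1.43) beside 0.94, and of GAL7 0.89 (0.63 to 1.28) beside 0.72. Each of these intervals holds the length-matched ratio. Relative to length-matched fragments the ratio was 1.15 at GAL1, 1.07 at GAL2, 1.23 at GAL10 and 1.23 at GAL7. At the other genes it was 1.17 at CTT1, 1.10 at HIS4, 1.04 at SSA4, 0.95 at PRM1 and 0.88 at FIG2. For all 9 genes together the share of partners near chromosome ends was 6.70% and 5.72%, beside 6.59% and 6.02%, with genes ranging from 2.67% to 7.75% in galactose. The range of the 5 genes in galactose, from 3.70% at SUC2 to 8.70% at TSA2, overlaps it.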

How the data were processed

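GCC libraries of cells grown in glycerol lactate and galactose were analysed, 1 combined library of 2 biological replicates per medium. The authors aligned reads with SOAP, allowing no mismatches, and built networks of MspI fragment pairs with Topography 1.19. The deposited values are counts per fragment pair, without normalization, from uniquely mapped or all mapped sequences. The reference is S288C, and the sequence versions are not R64. A pair appears in the tables in either order of its fragments, 0 lines lacked the reverse order with the same count, and pairs were taken once. Names and locus tags were matched to a RefSeq gene table for 5 of 5 genes. The genes and lists were chosen with earlier results of these data known. All fragments of the 5 genes are described, with partners of at least 3 counts, at most 3 per gene and medium. Shares have 95% Wilson intervals. Ratios have exact conditional 95% intervals. A ratio past 2-fold with at least 20 counts was called. The background was the 13216 other nuclear fragments outside the rDNA with counts in the uniquely mapped tables. The functions were tested on simulated data. Python 3.11.15 with pandas 2.3.3 and scipy 1.17.1 was used. No sequence is printed. Alternatives were the tables of all mapped sequences, distinct pairs, other sets of fragments, end distances, length windows, denominators and count minimums.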

Additional observations from a re-analysis of the deposited data

Results flagged for a closer look

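Some counts of the 31 fragments lie outside the classes compared above and are above the 3 counts that a count of 0 allows. With the 2-micron plasmid the fragments had 27 counts in glycerol lactate and 66 in galactose, of which HXK1 had 16 and 34 and INO1 3 and 17. The whole libraries held 9644 and 20477 counts between the plasmid and nuclear fragments, so these rose in galactose as well. With the rDNA the 31 fragments had 18 in glycerol lactate and 9 in galactose, where the whole libraries held 7648 and 6843. Pairs of a fragment with itself, which are ligated circles or uncut ends, numbered 59 in galactose, beside 45.5 in length-matched fragments, and 3 in glycerol lactate. Of the 59, HXK1 held 29, INO1 14 and SUC2 12, and length-matched fragments of SUC2 had 3.43.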

How the results depend on the processing

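No paired analysis was possible because each medium is 1 library, and for the same reason no replicate could be left out. The values here are for the 31 fragments, glycerol lactate first. With all mapped sequences the between-chromosome share was 48.4% and 53.5%, beside 81.9% and 75.5% in length-matched fragments, the chromosome end share 8.26% and 10.9%, beside 31.7% and 29.3%, and the adjacent share 74.4% and 51.4%, beside 53.4% and 33.7%. The ratio of between-chromosome counts was 1.40 beside 1.02, with 10 fragments past 2-fold higher, beside 38.8% of all nuclear fragments. The length-matched values here rest on means, which fragments with many counts raise. The 31 fragments had 1840 and 2805 between-chromosome counts, beside 7766 and 8569 by length-matched means and 1073 and 2058 by medians. The median ratio of single fragments was 1.81 among the 31 and 1.79 over all nuclear fragments. With all mapped sequences, 20 mitochondrial counts were reached by 3 fragments. With the same setting, 2 counts joined different genes in glycerol lactate. As distinct pairs, the between-chromosome share was 72.6% and 58.8%, beside 68.6% and 53.2%, the mitochondrial share 13.4% and 2.02%, and the adjacent share 4.74% and 1.96%. Fragments naming a single gene gave a between-chromosome share of 44.0% in glycerol lactate, an end share of 6.29% in galactose, adjacent shares of 83.5% and 54.0%, a mitochondrial ratio of 1.30, and 0 of 11 past 2-fold higher. End distances of 15 kb and 50 kb gave 2.74% and 2.78%, and 13.2% and 13.2%. At 50 counts, 1 fragment was past 2-fold. Over all non-adjacent nuclear counts the mitochondrial ratio was 0.15, and 0.37 at SUC2 and 0.43 at TSA2, where it fell from above 1 to below it. The ratio of every fragment changes by the same factor there.

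The following 4 settings were chosen after seeing the data. Fragments overlapping the genes gave a between-chromosome share of 43.7% in glycerol lactate, adjacent shares of 81.5% and 52.0%, 0 of 14 past 2-fold higher and 0 counts between genes in either medium. Counting each pair within a gene once gave between-chromosome shares of 44.6% and 49.0%, adjacent shares of 74.8% and 45.7%, and a mitochondrial share of 8.95% in glycerol lactate. Only pairs past 10 kb in the denominator gave 89.2% and 67.6%, beside 82.4% and 59.4%. The between-chromosome share was thus under the length-matched value with all mapped sequences. That value rests on means, and the between-chromosome counts of the 31 fragments there were above the length-matched medians in both media. As distinct pairs or past 10 kb the share was over the length-matched value in both media. In the report the share was under it in glycerol lactate and close to it in galactose. Without telomere fragments, the end-matched background went from 13.5% and 10.8% to 9.07% and 8.98%. Of 104 values over the 31 fragments, 59 stayed within the interval of the value in the report, or within 1.5 times its count. The causes were not tested. Most pairs held 1 count, so depth limits what single pairs can show.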
